A study of Mus musculus with 18 samples.

Results

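In bone marrow macrophages of mice, 213 of the 3160 genes that the annotation classes as TEC were expressed at a mean of at least 1 CPM over 18 libraries, 6.74% of the class in a table of 54532 genes. CPM is a gene's raw read count scaled by the total of its library, with no correction for length. These 213 genes, called the members, were chosen by that mean, so their levels are a description, and the differences between groups carry the tests. Another 2947 TEC genes lay under 1 CPM, and 1407 of those had no count in any library. The choice turns on a narrow margin at its edge: Gm43935 at 1.01 CPM was the lowest member and Gm42783 and Gm47218, both at 0.99 CPM, were just outside.

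The study crossed 2 genotypes with 3 treatments, with 3 libraries in each of the 6 groups. By the labels, mice of 2 to 3 months carried floxed Smad1 alleles (Smad1 fl/fl) in all 6 groups. These alleles were alone in the groups called floxed-labelled here and joined by LyzM-Cre in the knockout-labelled groups (MyS1KO). LyzM-Cre is a recombinase driven from the lysozyme locus of myeloid cells. Tibial marrow cells were grown to adherent macrophages in CSF-1, starved of serum for about 16 h, and left untreated or given TGF-β1 at 10 ng/ml or BMP4 at 50 ng/ml for 4 h. The labels do not tie libraries to individual mice, so p-values measure the spread between these libraries, which may be technical. The main fit did not pair libraries by their replicate number, and counts with such pairing are given as an alternative.

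The libraries held 15153296 to 24639163 counts, so 3 counts, the limit that a count of 0 allows, stand at 0.122 to 0.198 CPM. All 10 macrophage markers of a list reached 1 CPM and summed to 10910 to 30520 CPM per library. Monocyte markers summed to 380 to 812 CPM, neutrophil markers to 83.5 to 220 CPM, fibroblast and stroma markers to 4.14 to 19.7 CPM, dendritic cell markers to 2.85 to 6.31 CPM, and lymphoid, mast cell, erythroid and platelet markers to 0.990 to 2.88 CPM. The targeted gene did not separate the genotypes in these gene-level counts: Smad1 stood at 19.2 to 27.5 CPM in the knockout-labelled and 22.0 to 31.5 CPM in the floxed-labelled libraries, and its difference without treatment was -0.22 on the log2 scale (edgeR quasi-likelihood adjusted p = 0.130). Counts over a whole gene cannot show whether single exons were deleted. Lyz2, the gene whose locus carries the Cre, was at 37.4 to 75.2 CPM in the 3 floxed-labelled libraries numbered 1, at 7933 to 9919 CPM in the other floxed-labelled libraries and at 13280 to 17530 CPM in the knockout-labelled ones. Lyz2 was thus highest in the libraries labelled as carrying the Cre. The genotypes are taken from the labels, which the counts of neither Smad1 nor Lyz2 bear out. Because Lyz2 was so low in the floxed-labelled libraries numbered 1, results that rest on them are also given without those 3 libraries, over 15. In bulk RNA, fewer cells of a type and less RNA per cell cannot be told apart.

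TEC is a provisional class of the GENCODE annotation. It holds loci where unspliced, expressed sequence tags with signs of polyadenylation pile up but no transcript structure or coding role has experimental support. Such loci often sit in introns of longer genes, where the tags can stem from an independent transcript, from an intronic polyadenylation event or from priming on an A-rich stretch of unspliced RNA. The libraries were made from RNA captured on oligo(dT), which selects polyadenylated molecules and can also prime on such stretches. Counts over an intronic member cannot be told apart from unspliced RNA of its host, and because the strand setting of the counting is not given in the sources used here, nor from RNA of the opposite strand.

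The annotated 3′ ends show how mixed the class is, and 7 members that the results below turn on are printed for that reason. The bases come from the GENCODE M21 transcripts on GRCm38, 5′ to 3′ on the member's strand, and capitals mark the hexamer AATAAA or ATTAAA, the usual polyadenylation signals. Ends beside a coding gene on the same strand are shown over 30 bases and the others over 60.
Gm44250: tagagttaatatAATAAAaacttgtaccaa
2010008C14Rik: atgttattaATTAAAgctgacatgtttctg
Gm43197: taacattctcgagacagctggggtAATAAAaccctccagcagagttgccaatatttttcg
Gm43336: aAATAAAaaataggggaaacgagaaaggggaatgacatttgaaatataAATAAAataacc
Gm44667: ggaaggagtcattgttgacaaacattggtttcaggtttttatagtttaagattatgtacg
Gm37084: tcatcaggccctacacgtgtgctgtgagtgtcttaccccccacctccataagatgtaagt
Gm37352: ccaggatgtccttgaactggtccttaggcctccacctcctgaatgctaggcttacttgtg

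The first 4 of these ends carry a hexamer and the other 3 do not. Gm44250 ends at chr6:5216258-5216287 on the minus strand with AATAAA 12 bases from its last base, and 2010008C14Rik at chr6:125084000-125084029 on the plus strand with ATTAAA 15 bases from it. Gm43197 (chr6:3336772-3336831, minus strand) has AATAAA 30 bases from the end, and Gm43336 (chr5:113900395-113900454, minus strand) holds 2 copies of AATAAA, the second 6 bases from the end of an A-rich stretch whose last 20 bases are 65.0% A. The ends of Gm44667 (chr7:67268906-67268965, minus strand), Gm37084 (chr1:131086252-131086311, minus strand) and Gm37352 (chr8:84202990-84203049, plus strand) hold neither hexamer in the 60 bases shown.

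Across the class the hexamers sat at the annotated ends more often than elsewhere in the same transcripts. Searching the transcript strand, and counting a window once however many matches it held, 77 of 212 members with a transcript (36.3%) had AATAAA or ATTAAA in the last 50 bases, against 4.25% in the first 50 and 2.83% in the middle 50. Of the members that lie inside a protein-coding gene without touching an exon, 32 of 120 had one (26.7%), and of those not inside a coding gene 33 of 69 (47.8%). TEC genes under 1 CPM had one in 28.4%, lincRNA genes in 53.1% and protein-coding genes in 73.6%. A match is a description of the letters in the window, and the genomic bases after the ends were not analysed here.

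All 213 members were single-exon gene models, with a median length of 2459 bp and a range of 463 to 30942 bp, 113 on the plus and 100 on the minus strand. Most were faint: 121 lay between 1 and under 2 CPM, the median was 1.73 CPM and 11 members reached 10 CPM. The 10 most abundant members held 34.2% of all member counts. Per length, on the authors' FPKM scale, the median level was 0.788 for members, 1.44 for lincRNA genes of at least 1 CPM and 6.99 for protein-coding genes of at least 1 CPM.

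Most members lay inside other genes. By the coordinates of the table, 110 members (51.6%) lay within the span of a protein-coding gene on the same strand and 33 (15.5%) within one on the opposite strand alone. A further 17 overlapped a coding gene in part, 20 overlapped genes that are not protein-coding and 33 overlapped no other gene. Nesting was not particular to the members: of the 2947 TEC genes under 1 CPM, 47.5% lay inside on the same strand and 10.8% on the opposite strand alone. Of these fainter TEC genes 30.5% overlapped no other gene. LincRNA genes of at least 1 CPM, another annotation class, were placed otherwise: 8 of 239 lay inside a coding gene on the same strand. Of the 109 members whose same-strand host is in GENCODE, 100 touched no exon of it, and these 100 lay at a median of 56.3% of the way along the host, 17 of them after its first exon alone. Of the members outside coding genes, 16 of 53 began within 5 kb downstream of a coding gene on the same strand, against 93 of 1124 TEC genes under 1 CPM and 22 of 181 lincRNA genes. Per length, the 143 nested members stood far below their hosts, at a median of 0.0532 of the host's FPKM, and 6 members were above the host.

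**Figure D1:**
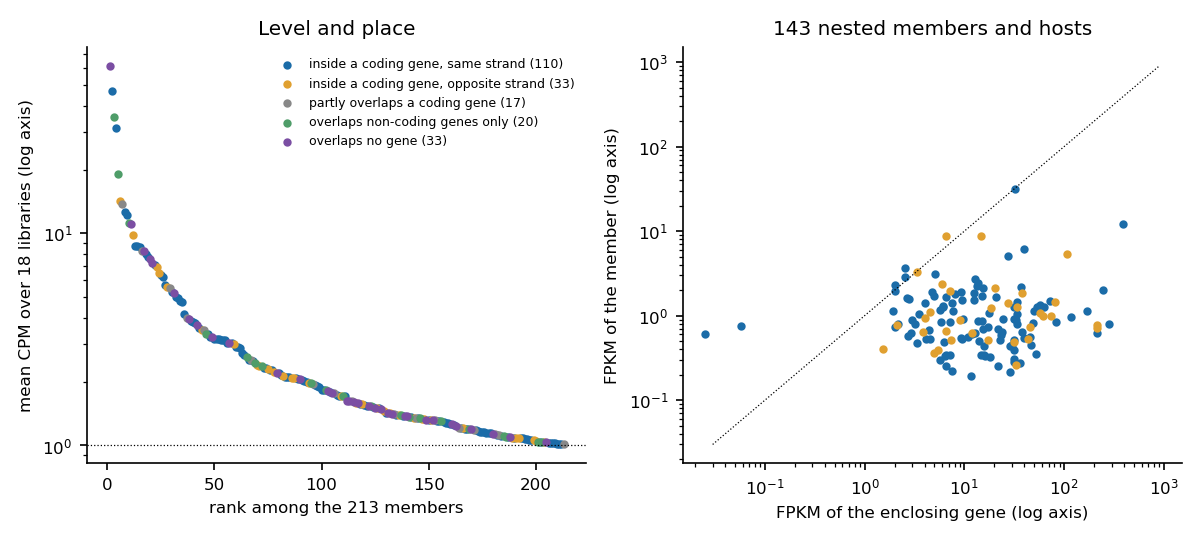
Left: mean CPM over 18 libraries (log axis) of each of the 213 members against its rank, coloured by the member's place relative to other genes, with a dotted line at 1 CPM, the selection threshold; 121 members lie between 1 and under 2 CPM. Right: FPKM of the 143 nested members against FPKM of the enclosing protein-coding gene (both axes log, colours as on the left), with a dotted line at equality; 6 members lie above their host.

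Gm44250, the most abundant member at a mean of 61.6 CPM, overlaps no other gene and starts 366 bp downstream of Pon3, a paraoxonase gene on the same strand. Second came AC160637.1 at 46.9 CPM inside Pkm, which encodes a pyruvate kinase of glycolysis and itself had 1959 CPM; this member overlaps exons of Pkm, so reads there could be counted to either gene. Gm43197 at 35.4 CPM lies within the non-coding transcript Gm20559, and 2510016D11Rik at 31.5 CPM within an intron of Tpcn1, a cation channel of endosomes and lysosomes. These 4 members held 23.2% of the member counts.

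Several loci carried more than 1 member. Among 146 coding genes that held or partly overlapped a member, 10 had at least 2, with 24 members in all. Picalm, a clathrin assembly protein gene, held 4 (Gm45220, Gm45221, Gm45222 and Gm45223), Slc6a6, a taurine transporter gene, held 3, and Usp33, a deubiquitinase gene, held 2 and partly overlapped Gm43857. Among non-coding hosts on the same strand, Mir99ahg, the host transcript of a microRNA cluster, held 5 members (Gm37694, Gm21816, Gm37606, 9530003O04Rik and C130023A14Rik) and Dleu2, also a microRNA host, held Gm37472 and Gm37420. Members of 1 host may share transcription or reads with it, so they are not taken as independent of each other.

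Between groups the members' levels moved over a modest range. The ratio of the highest to the lowest group mean had a median of 1.77-fold over members; 84 members exceeded 2-fold and 9 stayed under 1.2-fold, among them AC160637.1 at 1.10-fold. The untreated knockout-labelled group had the highest median member level, 2.22 CPM, and the highest mean of the 6 groups for 106 members. The medians were 1.87 CPM in the knockout-labelled TGF-β1 group, 1.63 in knockout-labelled BMP4, 1.495 in untreated floxed-labelled, 1.45 in floxed-labelled TGF-β1 and 1.70 in floxed-labelled BMP4. The number of members at 1 CPM or more ran from 161 in the untreated floxed-labelled to 210 in the untreated knockout-labelled group. Members were chosen by their mean over these same libraries, so a member near 1 CPM can pass through a group where it is high. At 1 CPM or more were 132 members in every group and 9 in at most 2 groups, so these group levels draw on the choice itself.

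As a share of all counts, members took 0.0796% to 0.0925% in the untreated knockout-labelled libraries and 0.0703% to 0.0743% in the untreated floxed-labelled ones. After BMP4 the ranges were 0.0716% to 0.0753% in knockout-labelled and 0.0755% to 0.0767% in floxed-labelled libraries, and after TGF-β1 0.0741% to 0.0800% and 0.0659% to 0.0714%. The TEC genes under 1 CPM, none of them a member, moved in the same libraries by more: 0.0359% to 0.0461% in untreated knockout-labelled against 0.0239% to 0.0265% in untreated floxed-labelled libraries, and 0.0243% to 0.0266% in knockout-labelled libraries after BMP4. In both measures the library numbered 1 of the untreated knockout-labelled group was the highest of the 18. Other classes were also higher in untreated knockout-labelled than in untreated floxed-labelled libraries. Sense intronic genes took 0.0147% to 0.0174% against 0.0129% to 0.0132%, and antisense genes 0.139% to 0.155% against 0.129% to 0.1335%. LincRNA genes took 0.4989% to 0.601% against 0.4385% to 0.4986%. Mitochondrial genes overlapped, at 1.057% to 1.135% against 1.118% to 1.188%.

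**Figure D2:**
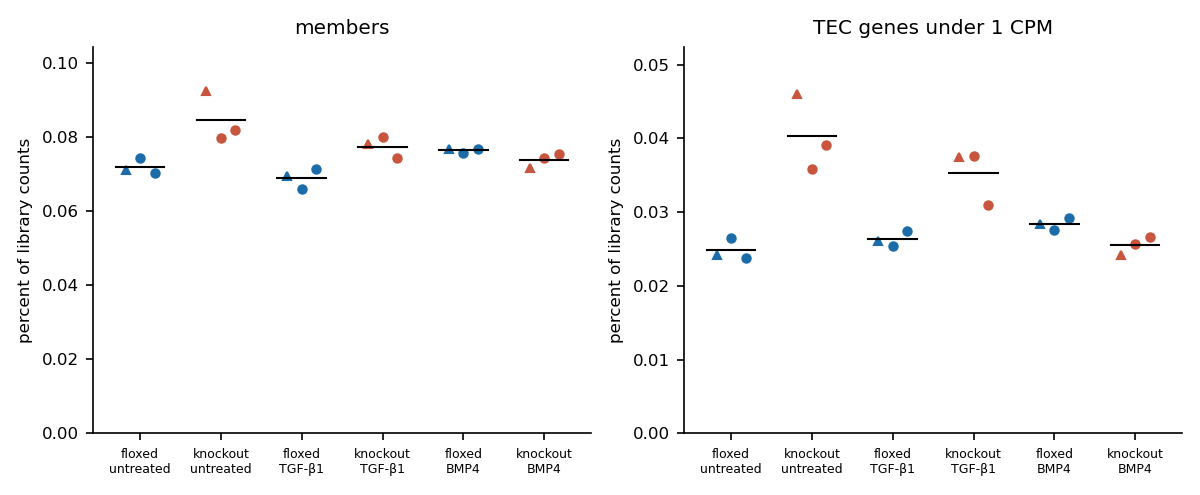
Percent of each library's counts in the 213 members (left) and in the 2947 TEC genes under 1 CPM (right), by group; points are libraries (triangles are those numbered 1, blue floxed-labelled, red knockout-labelled) and black lines are group means. The untreated knockout-labelled libraries reach 0.0925% and 0.0461%, the highest values of each panel.

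TGF-β1 changed members in both directions, and most nested members that changed did so together with their host. In the floxed-labelled macrophages 16 members rose and 25 fell, and in the knockout-labelled 12 rose and 35 fell, of 213 tested (edgeR quasi-likelihood, Benjamini-Hochberg adjusted p under 0.05 over all 14684 genes tested, as for every call below). This was 19.25% and 22.07% of members, fewer than among all genes. Of all genes 33% were called in floxed-labelled (17% higher, 16% lower) and 34.6% in knockout-labelled cells (17.6% higher, 17.1% lower). Among coding genes of 1 to 10 CPM 25.8% and 26.3% were called, among lincRNA genes 24.9% and 23.9%, and among antisense genes 17.1% and 15.8%. How far low counts set these shares was not tested. The members' median log2 change was -0.05 and -0.16, against 0.00 and 0.00 over all genes. Without the libraries numbered 1 of the floxed-labelled groups, 31 and 48 members were called, with 26.1% and 33.5% of all genes. Among 20 measured known TGF-β1 response genes, 17 rose and 1 fell in floxed-labelled cells with a median log2 change of 2.66. In knockout-labelled cells 17 rose, with a median of 2.59. This list and the next were chosen with earlier results of these data known, so their changes are a description and no independent yardstick. Of 19 measured well-known long non-coding RNAs, 4 rose and 2 fell in floxed-labelled cells, and 6 rose and 2 fell in knockout-labelled cells.

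The TGF-β1 responses of the genotypes share no library and named many of the same members: 27 members were called in both, 65.9% of the floxed-labelled and 57.4% of the knockout-labelled calls, with the same sign in all 27 (9 up, 18 down). Over all genes the overlap was larger, at 82.0% and 78.1% of the calls, with the same sign in all 3971 genes called in both. For no member did the response differ between the genotypes by the interaction test (0 called, 16 at an unadjusted p under 0.05, with 0.00681% called over all genes). The smallest p-values there were those of 9530056E24Rik, inside the receptor-type phosphatase gene Ptpra, at a log2 difference of -1.02, and Gm38120, inside the nuclear receptor coactivator gene Ncoa2, at -1.30.

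Gm44667 is the highest riser among the 10 most abundant members. It stood at 8.66, 8.24 and 8.51 CPM in untreated and 17.2, 19.3 and 18.4 CPM in TGF-β1-treated floxed-labelled libraries. In the knockout-labelled libraries it stood at 8.47, 9.01 and 7.51 CPM without and 23.8, 24.7 and 19.8 CPM with TGF-β1. The groups did not overlap in either genotype, and the log2 changes were 1.14 (SE 0.11, edgeR adjusted p = 9.55e-08) and 1.48 (SE 0.11, edgeR adjusted p = 3.96e-09). The member lies in an intron of Mef2a, a MADS-box transcription factor gene on the same strand, and inside Lysmd4 on the opposite strand. Mef2a rose from 257 to 272 CPM to 675 to 715 CPM in floxed-labelled cells, by 1.43 in each genotype (edgeR adjusted p = 7.2e-13 and 7.4e-13), while Lysmd4 gave -0.16 and -0.06 (edgeR adjusted p = 0.28 and 0.73). Against Mef2a the member's ratio moved by -0.29 and 0.04 (limma adjusted p = 0.567 and 0.978).

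Gm38357, in the first intron of Noct, a gene of the circadian deadenylase family, showed the same pairing. It went from 4.94, 3.82 and 4.63 CPM to 14.2, 9.78 and 13.0 CPM with TGF-β1 in floxed-labelled libraries, and from 5.81, 4.84 and 3.82 CPM to 12.1, 10.95 and 13.7 CPM in knockout-labelled ones. No treated library overlapped an untreated one. The log2 changes were 1.49 (SE 0.16, edgeR adjusted p = 4.11e-07) and 1.37 (SE 0.16, edgeR adjusted p = 1.68e-06), beside 1.58 and 1.53 for Noct.

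The 4 members inside Picalm had estimates above 0 in each genotype, but they did not all pass the test. Picalm itself rose by 1.04 and 1.08 on the log2 scale. Gm45222 rose by 1.04 and 1.04 (edgeR adjusted p = 0.0233 and 0.0159). Gm45220 rose by 1.23 in floxed-labelled cells (edgeR adjusted p = 0.00283) and had an estimate of 0.62 in knockout-labelled cells that did not pass (0.105), and Gm45221 likewise gave 0.87 and 0.57 (edgeR adjusted p = 0.0127 and 0.0916). Gm45223 gave 0.61 and 0.62 and passed in neither genotype. Gm45221 and Gm45223 are named because they share this host, a choice made after their values were seen, as are C130023A14Rik, Gm37420 and Gm43196.

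Other members that rose sat in hosts that rose. Gm37914, the largest riser in floxed-labelled cells at 1.63 (edgeR adjusted p = 0.00079) and at 0.83 in knockout-labelled cells (edgeR adjusted p = 0.0454), lies in the proteasome subunit gene Psmd1, which rose by 0.70 and 0.79. Gm38248 rose by 1.22 and 1.00 in Zranb3, a DNA annealing helicase gene that rose by 0.66 and 0.71. In knockout-labelled cells Gm38082 rose by 1.12 within Cux1, a homeobox gene (0.66), Gm43912 by 0.71 within Irak2, a kinase gene of Toll-like receptor signalling (0.69), and Gm47694 by 0.67 within Gm49336 (0.62). Gm47603, inside 2010111I01Rik on the opposite strand, rose by 1.44 in floxed-labelled cells (edgeR adjusted p = 0.00181) and had an estimate of 0.25 in knockout-labelled cells, beside 0.96 and 0.94 for the host. Gm44168, which overlaps genes that are not protein-coding, rose by 1.27 and 1.10.

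Among the members that fell, a run of them lay in Mir99ahg. Gm37694, the most abundant of the 5, went from 14.5, 15.6 and 9.91 CPM to 5.42, 5.52 and 5.89 CPM with TGF-β1 in floxed-labelled libraries. In knockout-labelled libraries it went from 16.8, 13.2 and 13.95 CPM to 4.69, 4.78 and 5.14 CPM. All 6 treated libraries lay below all 6 untreated ones, and the log2 changes were -1.22 (SE 0.14, edgeR adjusted p = 1.19e-06) and -1.56 (SE 0.15, edgeR adjusted p = 9.36e-08). The other 4 fell as well: 9530003O04Rik by 1.81 and 1.36, Gm37606 by 1.501 and 1.66, Gm21816 by 1.196 and 1.73, and C130023A14Rik by 0.75 and 1.14. Mir99ahg fell by 1.14 and 1.26 on the same scale (edgeR adjusted p = 9.4e-09 and 3.2e-09).

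Gm43197 and its host Gm20559 also fell together. The member went from 44.1, 42.6 and 38.2 CPM to 19.3, 19.97 and 23.95 CPM in floxed-labelled and from 41.6, 38.7 and 38.2 CPM to 21.5, 19.8 and 26.0 CPM in knockout-labelled libraries. Treated and untreated libraries did not overlap. The log2 changes were -0.95 (edgeR adjusted p = 7.46e-08) and -0.79 (edgeR adjusted p = 1.31e-06), beside -0.85 and -0.83 for Gm20559. Samd9l, an interferon-induced gene and the nearest coding gene, 32903 bp from the member on the same strand, fell by 0.72 and 0.67. Gm43196, another member with Samd9l as its nearest coding gene and no overlap, fell by 1.00 in floxed-labelled cells (edgeR adjusted p = 0.0071) and gave -0.23 in knockout-labelled cells.

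Several intronic members fell with a coding host. Gm37084 lies in the first intron of Mapkapk2, a kinase gene downstream of p38. It stood at 5.24, 5.28 and 4.47 CPM in untreated and 2.32, 2.56 and 2.16 CPM in TGF-β1-treated floxed-labelled libraries, and at 12.3, 10.3 and 12.0 CPM against 4.75, 4.24 and 3.25 CPM in knockout-labelled ones. The fall was -1.06 and -1.48 (edgeR adjusted p = 0.000566 and 6.39e-06), beside -1.25 and -1.34 for Mapkapk2. Gm47445 fell by 1.23 and 1.34 within Dse, a dermatan sulfate epimerase gene that fell by 1.38 and 1.41. Gm38228 fell by 1.35 in floxed-labelled cells within the adaptor gene Nck2 (fell by 1.13) and gave -0.46 in knockout-labelled cells. Gm38365 within Dgkd, a diacylglycerol kinase gene, and Gm43815 within Nfxl1 fell by 1.68 and 1.62 in knockout-labelled cells, where the hosts fell by 0.62 and 1.31, and gave -0.37 and -0.54 in floxed-labelled cells. Exceptions were Gm38120, which fell by 0.74 in knockout-labelled cells (edgeR adjusted p = 0.0384) within Ncoa2 at -0.06 (0.45), and 4930517G19Rik, which fell by 0.88 in floxed-labelled cells (edgeR adjusted p = 0.0115) opposite Slc6a6 at -0.17 (0.066). Of the abundant members, 2510016D11Rik fell by 0.29 and 0.31 with Tpcn1 at -0.34 and -0.58, and Gm43071 by 0.56 and 0.62 with Dram2, a lysosomal membrane gene of autophagy, at -0.51 and -0.48.

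Members outside genes often moved with the nearest coding gene. Gm44250 rose from 63.8, 46.3 and 58.1 CPM to 79.8, 72.0 and 81.4 CPM in floxed-labelled and from 52.0, 54.4 and 53.5 CPM to 76.2, 72.7 and 79.1 CPM in knockout-labelled libraries. Its log2 change was 0.50 and 0.54 (edgeR adjusted p = 8.74e-05 and 5.18e-05), beside 0.53 and 0.58 for Pon3. 2010008C14Rik, which lies 965 bp from Lpar5, a lysophosphatidic acid receptor gene, fell by 0.79 and 0.99 with Lpar5 at -0.97 and -0.95.

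Gm44154 lies 63 bp from Rassf4, a gene of the RAS-association family with 1276 CPM on the opposite strand. The member stood at 9.83, 8.81 and 7.60 CPM in untreated and 2.38, 2.52 and 3.24 CPM in TGF-β1-treated floxed-labelled libraries. In the knockout-labelled libraries it stood at 10.8, 9.13 and 8.19 CPM without and 2.71, 2.52 and 2.68 CPM with TGF-β1. The 6 treated libraries all lay under the 6 untreated ones, and the log2 changes were -1.65 and -1.80 (edgeR adjusted p = 4.53e-08 and 2.64e-08), beside -1.58 and -1.60 for Rassf4.

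The deepest fall among members was that of Gm38383, which overlaps no gene. It had 6, 3 and 6 counts in the TGF-β1-treated floxed-labelled libraries and 3, 0 and 3 in the knockout-labelled ones, against 2.25, 4.90 and 3.18 CPM and 2.04, 1.03 and 2.44 CPM without treatment. The fitted changes of -3.86 and -3.91 (edgeR adjusted p = 3.21e-06 and 5.95e-05) depend on the prior count at such low counts. Cacna1b, a calcium channel gene 12662 bp away on the opposite strand, gave -1.22 and -1.38.

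Gm37352 went against its neighbour. It overlaps no gene, and Zswim4 lies 7629 bp away on the opposite strand. It stood at 1.95, 2.50 and 2.42 CPM in untreated and 5.97, 5.56 and 5.11 CPM in TGF-β1-treated floxed-labelled libraries, and rose by 1.30 (SE 0.19, edgeR adjusted p = 1.79e-05). In knockout-labelled libraries it stood at 8.23, 5.50 and 6.004 CPM without and 11.3, 13.0 and 8.08 CPM with TGF-β1, a rise of 0.74 (edgeR adjusted p = 0.00197) in which the lowest treated library lay just under the highest untreated one. Zswim4 gave -0.17 and -0.32.

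**Figure D3:**
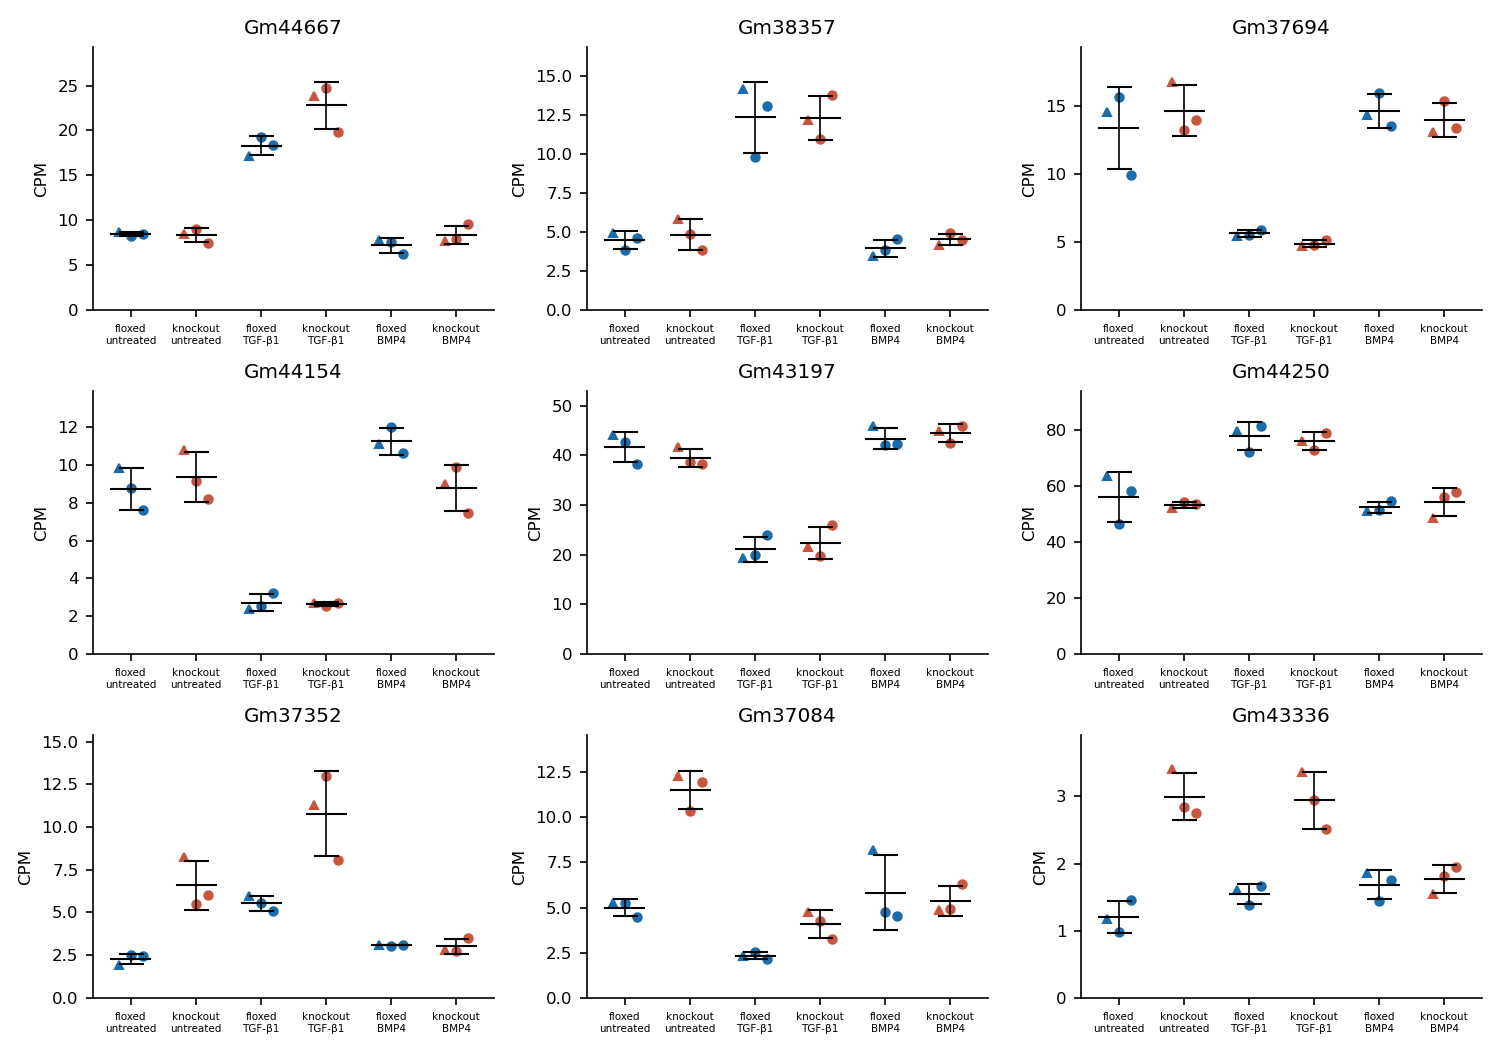
CPM of 9 members in each library (points; triangles are the libraries numbered 1, blue floxed-labelled, red knockout-labelled), by group, with group mean and SD as black lines (n = 3); each axis starts at 0. Gm44667 and Gm38357 are high and Gm37694, Gm44154 and Gm43197 low after TGF-β1 in both genotypes, while Gm37352, Gm37084 and Gm43336 are also higher in untreated knockout-labelled than in untreated floxed-labelled libraries.

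Across the nested members the TGF-β1 change tracked that of the host. Over 142 pairs of a member and its enclosing coding gene with both tested, Pearson's r was 0.80 and Spearman's rho 0.76 in floxed-labelled cells, and 0.77 and 0.69 in knockout-labelled cells. Over 109 pairs with a host on the same strand r was 0.85 and 0.84, and over the 34 pairs in which the shortest enclosing gene is on the opposite strand (Gm44667 and Lysmd4 among them) it was 0.62 and 0.53. Among nested pairs without a member it was 0.64 and 0.67 over 535 pairs on the same strand, and 0.67 and 0.64 over 649 on opposite strands. These are descriptions, and no difference between the sets was tested. The members of a pair share libraries, and part of the reads over a member may come from its host. Of the 24 nested members called in floxed-labelled cells, 22 had a host that was called, all with the same sign, and in knockout-labelled cells 26 of 28. Over all 142 pairs, 65 hosts were called in floxed-labelled and 75 in knockout-labelled cells. Most of these called hosts, 43 and 49, held a member that was not called. The ratio of member to host, tested with limma over all 1326 nested pairs, changed for 1 member in each genotype (0.704% of 142, where 3.54% of all pairs in floxed-labelled and 3.92% in knockout-labelled cells were called). That member was Gm44667 against the opposite-strand Lysmd4 (1.29 and 1.54, limma adjusted p = 1.9e-05 and 1.6e-06), and against same-strand hosts no member was called. For members outside genes with a coding neighbour within 5 kb, over 28 pairs, r was 0.87 and 0.83. Over 18 pairs with the neighbour farther away it was 0.74 and 0.70. No such value is given here for neighbouring genes in general.

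Between the untreated genotypes the called members all differed in the same direction. Of the 213 members, 29 were higher in untreated knockout-labelled than in untreated floxed-labelled macrophages and none was lower, against 2.39% of all genes called, 1.29% higher. The members' median log2 difference was 0.36, with 174 of 213 above 0, against 7425 of 14684 over all genes. Both values draw on the choice of members by level. At 1 CPM or more were 210 members in the untreated knockout-labelled and 161 in the untreated floxed-labelled group. The median is not given here for members at 1 CPM in each group. The libraries did not overlap between the groups for any of the 29, a separation that picking members by the test favours. The share of all genes without overlap is not given here. The median was 0.48 for members inside a coding gene and 0.16 for the rest. Other sets fitted alike gave 0.71 for the 365 tested TEC genes under 1 CPM, 0.18 for antisense genes, 0.03 for lincRNA genes and 0.01 for coding genes of 1 to 10 CPM.

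The leading members, picked by the lowest adjusted p, were modest in level. Gm37352 stood at 8.23, 5.50 and 6.004 CPM in untreated knockout-labelled against 1.95, 2.50 and 2.42 CPM in untreated floxed-labelled libraries. All 3 of the former lay above all 3 of the latter, with a log2 difference of 1.53 (SE 0.19, edgeR adjusted p = 0.00106). Gm37084, in the first intron of Mapkapk2, stood at 12.3, 10.3 and 12.0 CPM against 5.24, 5.28 and 4.47 CPM, a difference of 1.21 (SE 0.19, edgeR adjusted p = 0.00623), while Mapkapk2 differed by -0.00. Gm43336, within Coro1c, an actin-binding coronin gene, stood at 3.40, 2.84 and 2.75 CPM against 1.17, 0.989 and 1.45 CPM. It differed by 1.32 (SE 0.20, edgeR adjusted p = 0.00492) and Coro1c by 0.12 (edgeR adjusted p = 0.40).

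The others followed the same form. Gm37472, within Dleu2, stood at 4.58, 3.21 and 5.25 CPM against 0.563, 1.27 and 1.51 CPM, a difference of 1.99 (edgeR adjusted p = 0.00513) beside 0.05 for Dleu2. Gm37420, also within Dleu2, differed by 1.76 (edgeR adjusted p = 0.0195). Gm38120, within Ncoa2, stood at 2.41, 1.94 and 1.44 CPM against 0.520, 0.565 and 0.431 CPM, a difference of 1.92 (edgeR adjusted p = 0.00492) beside 0.19 for Ncoa2. Gm47603 stood at 2.17, 1.51 and 2.38 CPM against 0.477, 0.518 and 0.593 CPM and differed by 1.93 (edgeR adjusted p = 0.00722), with -0.01 for 2010111I01Rik. Both Gm38120 and Gm47603 lay under 1 CPM in the untreated floxed-labelled libraries, so they may be members through groups where they were high. Most abundant members showed no such difference: the 10 most abundant had log2 differences from -0.19 to 0.22, none called.

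The 29 called members had log2 differences of 0.81 to 1.99 with a median of 1.39. The coding hosts of the 22 of them that are nested had a median of 0.09 and a range of -0.08 to 0.35. Of these hosts 1 was called, Nav1, a microtubule-associated gene, at 0.35. Over all 142 pairs 2 hosts were called, beside 2.39% of all genes, so few host calls are no trait of these members. Tested as a ratio, 16 members were higher relative to the host (11.3% of 142, against 5.28% of all nested pairs by limma) and none lower.

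The count of 29 depended on single libraries and on the choice of members by level, given in the closing section for members at 1 CPM in each group. It fell to 7 without the untreated knockout-labelled library 1 or without library 3, to 9 without the untreated floxed-labelled library 1 and to 14 without the floxed-labelled library 2 or 3. It was 6 with the compared groups fitted alone, and 8, with a median of 0.35, over the 15 libraries that leave out the floxed-labelled libraries numbered 1. Of all genes 0.215% and 0.2595% were called in these fits, against 2.39% in the main fit. With the share of counts in TEC genes under 1 CPM as a covariate no member and no gene was called and the median was -0.05. That share does not overlap between these groups, as given above, so in such a fit its part and that of the genotype cannot be told apart. Monocyte markers summed to 408.5 to 486 CPM in the untreated knockout-labelled and 560 to 812 CPM in the untreated floxed-labelled libraries, and neutrophil markers to 109 to 151 CPM and 128 to 193 CPM; their part in the result was not tested. The ratio calls went from 16 to 5 without the untreated knockout-labelled library 1 and to 9 over the 15 libraries.

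In the knockout-labelled macrophages, members were lower in BMP4-treated than in untreated libraries, the same untreated libraries that were high above. These calls depended on single libraries and on the fit, as given below. Of 213 members 11 fell and none rose, against 0.572% of all genes called, 0.443% lower, and the median log2 change was -0.26 with 46 members above 0. These values also draw on the choice of members by level, with 210 members at 1 CPM or more without BMP4 and 183 with it. A130071D04Rik, within Ptprc, the gene of the leukocyte surface phosphatase CD45, went from 4.02, 3.57 and 2.94 CPM to 1.54, 1.14 and 1.25 CPM. The treated libraries lay below the untreated ones, with a log2 change of -1.41 (SE 0.22, edgeR adjusted p = 0.0115) beside -0.02 for Ptprc. Gm45191, within the protein kinase C gene Prkcb, went from 2.91, 2.42 and 2.69 CPM to 0.795, 0.517 and 1.10 CPM, a change of -1.72 (edgeR adjusted p = 0.0174) beside -0.14 for Prkcb.

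Members named for the untreated difference were among those that fell after BMP4, and both comparisons use the 3 untreated knockout-labelled libraries. Gm37352 went from 8.23, 5.50 and 6.004 CPM to 2.80, 2.74 and 3.51 CPM (-1.12, edgeR adjusted p = 0.0121). Gm47603 went from 2.17, 1.51 and 2.38 CPM to 0.561, 0.672 and 0.301 CPM (-1.96, edgeR adjusted p = 0.0121). Gm37084 went from 12.3, 10.3 and 12.0 CPM to 4.86, 4.91 and 6.32 CPM (-1.10, edgeR adjusted p = 0.0140), beside -0.23 for Mapkapk2. Gm21816, within Mir99ahg, went from 3.16, 2.36 and 2.13 CPM to 1.08, 0.828 and 0.602 CPM (-1.59, edgeR adjusted p = 0.0146), beside -0.22 for Mir99ahg. In each of these the BMP4-treated libraries were all below the untreated ones.

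None of the coding hosts of the 8 nested members called here was called, and their log2 changes ran from -0.24 to 0.02 with a median of -0.13. Over all 142 pairs 3 hosts were called, beside 0.572% of all genes. Relative to the host, 13 members were lower (9.15% of 142, against 4.83% of all nested pairs by limma). The count of 11 became 0 without the untreated knockout-labelled library 1, 3 without library 3, 2, 1 and 5 without the BMP4-treated knockout-labelled libraries 1, 2 and 3, and 7 without the TGF-β1-treated floxed-labelled library 2. It was 0 with the compared groups fitted alone, where 2 of 13520 genes were called, and 7 over the 15 libraries, where 0.286% of all genes were called. It was 26 with a replicate block within genotype (the same replicate number paired within each genotype), where 3.21% of all genes were called. With the TEC share under 1 CPM as a covariate no gene was called and the median was 0.08; that share does not overlap between these groups either, so its part and that of BMP4 cannot be told apart. The 13 ratio calls became 2 and 6 without the untreated knockout-labelled libraries 1 and 3, and 7 and 5 without the BMP4-treated libraries 1 and 2.

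**Figure D4:**
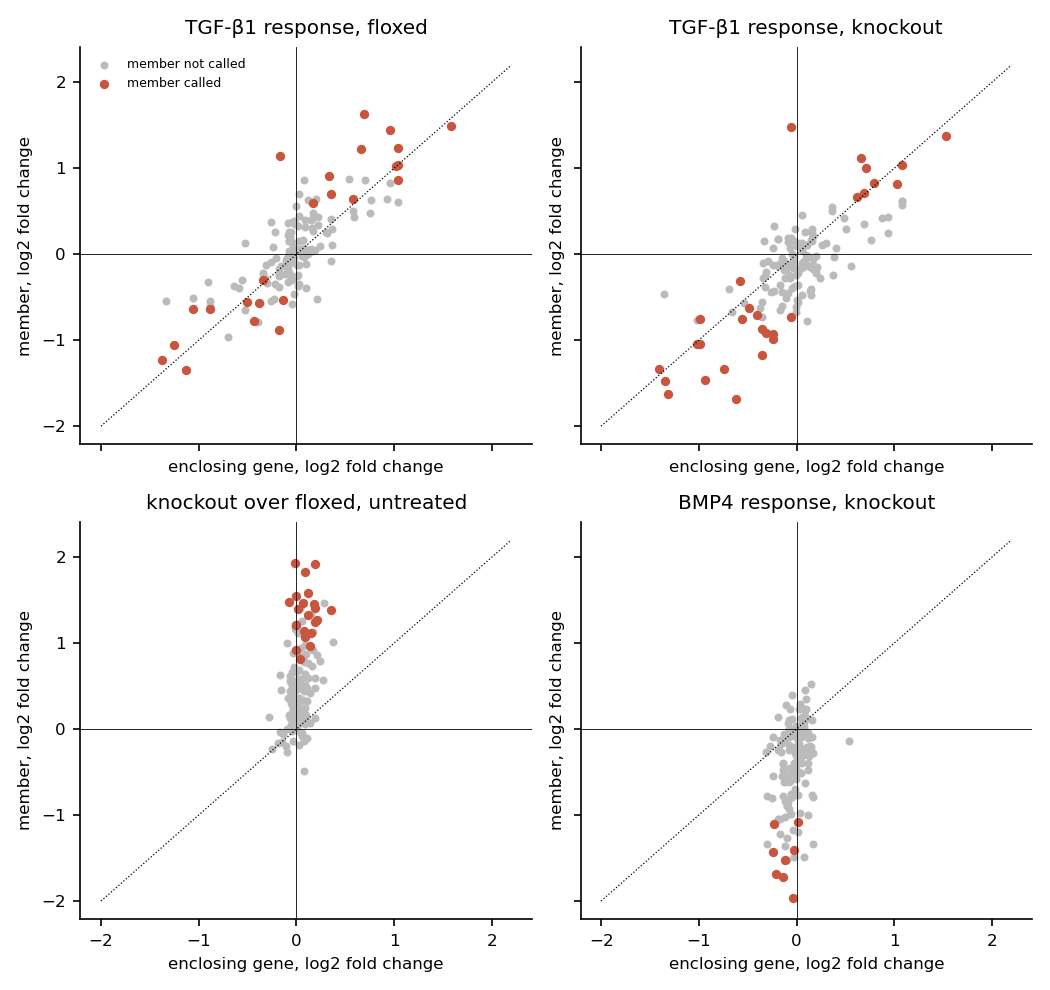
Log2 fold change of each nested member against that of its enclosing protein-coding gene, in 4 comparisons (142 pairs each; red, member called at an edgeR adjusted p under 0.05; dotted line, equality). After TGF-β1 points follow the line (r of 0.80 and 0.77), whereas for the untreated genotype difference and the BMP4 response of knockout-labelled cells called members lie above or below hosts near 0 (host medians of 0.09 and -0.13).

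In floxed-labelled macrophages BMP4 gave no called member, as it gave 0% of all genes, with 20 members at an unadjusted p under 0.05 by edgeR and 0 called by DESeq2, which left 201 without an adjusted p. The median was 0.15, with 159 of 213 above 0. Gm49502, within the sterol regulator gene Srebf2, had 1.56, 1.60 and 1.08 CPM without and 3.11, 1.78 and 2.03 CPM with BMP4, an estimate of 0.70 (edgeR adjusted p = 0.523). Gm47603 had 0.477, 0.518 and 0.593 CPM against 0.975, 1.00 and 1.31 CPM, and 1.05 (edgeR adjusted p = 0.501). The treated libraries lay above the untreated ones in both members, yet neither passed.

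The difference between the BMP4 responses of the genotypes had a median of -0.38 over members, with 0 members called by edgeR (55 at an unadjusted p under 0.05, and 0% of all genes called). Gm47603 had an estimate of -3.01 (edgeR adjusted p = 0.070) and Gm37352 of -1.56 (edgeR adjusted p = 0.103). With the replicate block within genotype 5 members were called among 7 genes in all, and by DESeq2 9 among 15.

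Under TGF-β1, 3 members were higher in knockout-labelled than in floxed-labelled cells and none lower, against 0.388% of all genes called, 0.136% higher, with a member median of 0.22. Gm37352 stood at 11.3, 13.0 and 8.08 CPM against 5.97, 5.56 and 5.11 CPM (0.96, edgeR adjusted p = 0.0234). Gm43336 stood at 3.37, 2.95 and 2.52 CPM against 1.60, 1.38 and 1.66 CPM (0.92, edgeR adjusted p = 0.0421). 4930517G19Rik, inside Slc6a6 on the opposite strand, stood at 1.06, 1.88 and 1.47 CPM against 0.553, 0.690 and 0.623 CPM (1.24, edgeR adjusted p = 0.0421). In these floxed-labelled libraries it lay under 1 CPM, so it may be a member through groups where it was high. The groups did not overlap for any of the 3, a separation that picking members by the test favours. The count was 0 over the 15 libraries, with a median of 0.24, 0 with the compared groups fitted alone, 0 with the covariate above and 0 to 3 without single libraries. Of all genes 0.0133% were called over the 15 libraries and 0.14% with the compared groups alone. Under BMP4 no member differed by genotype (0 called and 13 at an unadjusted p under 0.05 by edgeR, 0.0272% of all genes called), and the median was -0.06. There 2510016D11Rik gave -0.27 (edgeR adjusted p = 0.359) and Gm47603 gave -1.08 (edgeR adjusted p = 0.423).

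Of the named members that overlap no gene, Gm45884 and Gm42547 were not called in any of the TGF-β1 or genotype comparisons. Gm45884 lay between 8.56 and 13.8 CPM over the 18 libraries and Gm42547 between 5.60 and 9.15 CPM. Among the 10 most abundant, AC160637.1, Gm37795 and Gm43980, the last inside the splicing factor gene Tra2a on the opposite strand, were not called in the same comparisons either, and 2310043P16Rik fell by 0.47 after TGF-β1 in floxed-labelled cells (edgeR adjusted p = 0.0148) with an estimate of -0.26 in knockout-labelled cells.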

How the data were processed

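RNA-seq values of 18 libraries were read from the deposited tables. The submitters' processing notes name TopHat2 2.0.9, HTSeq 0.6.1, Cufflinks 2.1.1, mm10 and GRCm38.p6 without saying which step each served. The deposited counts are whole read counts per gene, and the deposited FPKM values are the authors' levels per length and depth. Biotypes and coordinates come from the authors' gene table. The strand setting and counting mode are not given in the sources used here. A further 78 per-sample columns and 21 columns of the authors' own comparisons were not used.

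Members were the TEC genes whose mean CPM reached 1. The members and lists were chosen with earlier results of these data known. Counts were tested with edgeR 4.0.16 (R 4.3.3): TMM scaling (factors 0.978 to 1.02), filterByExpr, which all 213 members passed, 1 mean per group over all 18 libraries, and quasi-likelihood F tests adjusted over 14684 genes. Ratios of nested gene to host (counts plus 0.5, log2) were tested with limma 3.58.1. Raw CPM was used for levels and FPKM for comparisons between genes. The methods were tested on simulated data. Alternatives included DESeq2 1.42.0. Named members were the 10 most abundant, the 8 largest non-overlapping called rises and falls per TGF-β1 response, up to 6 called members by adjusted p elsewhere (2 by unadjusted p where none was called), those called against their host, the 5 most abundant that overlap no gene, and the TEC genes nearest the 1 CPM threshold.

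Chi-square tests of the counts (3.69 to 28.7 per degree of freedom between libraries of 1 group) showed no library deposited more than once. Replicate numbers come from the titles. Deviations from the group means correlated between same-numbered libraries at 0.207 to 0.40 within floxed-labelled and 0.188 to 0.496 within knockout-labelled groups. Every such pair was over 0.1, while between genotypes the values were -0.205 to 0.030. The numbers were therefore taken to pair libraries within a genotype, but only in the fits with a replicate block within genotype. The main fit had no block, so its calls leave this pairing out.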

Additional observations from a re-analysis of the deposited data

How the results depend on the processing

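In the comparison it was picked for, no named member changed direction under any setting tried. Of 1681 recomputed values 1558 kept their side of the threshold, 114 lost it and 9 gained it. These members were mostly picked for a large change or a low p-value, a choice that makes a reversal unlikely. The tally leaves out members named only for level, place or host, a member's other comparisons, and values without an adjusted p. Counts of members called moved as follows. After TGF-β1 the 41 floxed-labelled and 47 knockout-labelled calls became 26 and 25 with members taken at 2 CPM, 27 and 26 at 1 CPM in each group, and 24 and 28 for members inside coding genes (an alternative chosen after seeing the data). The 11 calls after BMP4 in knockout-labelled cells became 25 without the filter, 22 by DESeq2, 0 with the compared groups alone, 26 with the replicate block within genotype, 0 with the TEC share as a covariate, 0 with both (chosen after seeing the data), 7 over 15 libraries, and 6 at 2 CPM and 6 at 1 CPM in each group. Of all genes 0.813% were called without the filter, 1.23% by DESeq2 and 3.21% with that block, against 0.572% in the main fit. The 29 calls between untreated genotypes became 6 with the compared groups alone, 0 with the covariate, 8 over 15 libraries, 11 at 2 CPM and 12 at 1 CPM in each group. The 3 between TGF-β1-treated genotypes became 1 with RLE scaling, 10 without the filter, 9 by DESeq2, and 0 with the compared groups alone, with the covariate and over 15 libraries. There 0.204% of all genes were called with RLE scaling, 1.335% without the filter and 1.29% by DESeq2, against 0.388% in the main fit. The difference of BMP4 responses, 0 by edgeR, gave 12 without the filter, 9 by DESeq2, 5 with the replicate block within genotype, and 1 by limma on FPKM at either pseudocount (1 and 0.1). The shares of all genes called were 0.163%, 0.102%, 0.0477%, 0.0204% and 0.0136% in the same order. Among all genes called between TGF-β1-treated genotypes, 46.7% were higher with RLE scaling against 35.1%, and between BMP4-treated ones 0% with library totals against 25%. The ratio to the host gave 0 and 0 after TGF-β1 with same-strand hosts alone. Between untreated genotypes it gave 27 with a pseudocount of 2 (chosen after seeing the data) and 9 over 15 libraries.

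Leaving out 1 library at a time gave 35 to 41 and 38 to 49 calls after TGF-β1 in floxed-labelled and knockout-labelled cells. It gave 0 to 12 after BMP4 in knockout-labelled cells, 7 to 32 between untreated genotypes, 0 to 3 between TGF-β1-treated genotypes and 0 to 2 for the difference of BMP4 responses. Host ratios gave 1 to 2 in each genotype after TGF-β1, 2 to 16 after BMP4 in knockout-labelled cells and 5 to 19 between untreated genotypes. The replicate block over all groups gave 39 and 50 calls after TGF-β1 and, within genotype, 43 and 54, and it moved no other count of calls by over 1.5 times beyond those given. After TGF-β1, 34.2% and 35.9% of all genes were called with the block over all groups, and 39.5% and 40.3% within genotype. The causes of these shifts were not tested. Depth limits what can be seen: most members lay under 2 CPM, and 42 of 3834 member values were under 10 counts.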
